A study of Mus musculus with 8 samples.

Results

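The barcodes open at stromal genes were nuclei of FFPE mouse spleen with accessible DNA at 2 or more of 13 genes chosen as markers of connective tissue cells. They were 85 of 2406 barcodes without reverse crosslinking (3.53%, exact 95% binomial interval 2.83 to 4.35) and 970 of 18620 with it (5.21%, 4.89 to 5.54), together 1055 of 21026. A barcode counted as a member when the midpoints of its fragments fell in the window of at least 2 different genes of Wt1, Smoc2, Pknox2, Vgll3, Cemip, Ntf3, C1qtnf7, Klhl29, Col1a1, Col1a2, Col3a1, Pdgfra and Pdgfrb, a window being the gene body plus 5 kb upstream. The fragments in these windows chose the members and are given as a description. Ratios of members over other barcodes were read at other loci. A rule gene was read in barcodes chosen without it and, as a description, by cluster.

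The series profiled chromatin accessibility in spleens of 8-week-old C57BL/6J mice of both sexes that had been formalin-fixed and paraffin-embedded (FFPE). A Tn5 transposase cut open chromatin in isolated nuclei, and split-pool ligation gave the DNA of each nucleus its own barcode. The nuclei were then divided between a tube without reverse crosslinking (−RV) and a tube with it (+RV), a step that undoes the formaldehyde crosslinks before amplification, and bulk libraries were made in the same 2 ways with 2 libraries each. The 2 single-cell libraries of each condition were deposited as 1 pooled set, so each condition was 1 sample, nothing separated animals, and no test between conditions or between members and other barcodes was possible. Intervals below are exact 95% intervals of counting error only. The −RV set held 1592372 nuclear fragments and the +RV set 13703580, nuclear meaning outside mitochondrial DNA, and 2 barcodes occurred in both sets.

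The stroma of the spleen is the scaffold in which blood cells move and lodge. Its fibroblastic reticular cells lay down collagen fibres, attract lymphocytes with chemokines and feed macrophages with growth factors, while contractile mural cells wrap the vessels and a mesothelium covers the capsule. Fibroblasts carry the receptors of platelet-derived growth factor, and the early splenic mesenchyme depends on transcription factors such as Wt1 and Tlx1. Open chromatin at a gene shows where regulatory factors and the transcription machinery can reach DNA, and it is not a measure of RNA.

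The 13 rule genes fell into 4 groups by role. The group of regulators, with Klhl29 put beside them, held Wt1 (chr2:105126529-105173616), a zinc-finger factor needed for the spleen to form, Pknox2 (chr9:36890982-37147407), a homeobox factor of the TALE class, Vgll3 (chr16:65815257-65866368), a cofactor of TEAD factors, and Klhl29 (chr12:5077472-5375682), a member of the kelch family. The secreted or matrix-modifying proteins were Smoc2 (chr17:14279506-14404790), a calcium-binding matrix protein, Cemip (chr7:83932857-84086502), which breaks down hyaluronan, Ntf3 (chr6:126101412-126166910), a neurotrophin, and C1qtnf7 (chr5:43515538-43618803), a relative of complement C1q. The fibrillar collagen genes were Col1a1 (chr11:94936224-94953042), Col1a2 (chr6:4504814-4541544) and Col3a1 (chr1:45311538-45349706). Pdgfra (chr5:75152292-75198215) and Pdgfrb (chr18:61045150-61085061) encode the platelet-derived growth factor receptors. Coordinates are of the GENCODE gene on mm10.

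Together the 13 windows held 5815 of the nuclear fragments in +RV and 581 in −RV, which was 0.0424% and 0.0365%. The longest genes supplied most members. Klhl29 was touched in 428 of the 970 +RV members and Pknox2 in 401, and 684 members had a fragment in one or both. Col1a1 was touched in 50 members, Col3a1 in 66, Col1a2 in 87, Pdgfra in 105, and Wt1 and Pdgfrb in 151 each. The most common pair was Pknox2 with Klhl29, in 145 members, and 57 members touched 2 or more of the 5 collagen and receptor genes. Per kilobase of window the order was another one. Over all +RV barcodes the level was highest at Pdgfrb, at 0.588 CPM per kb (fragments scaled to 1000000 nuclear fragments and divided by the length of the window), and at Col1a1, at 0.502, while Klhl29 had 0.282 and Smoc2 the lowest level of the 13, 0.217. In −RV, Col1a1 had the highest level, 0.547 CPM per kb, from 19 fragments, and Smoc2 again the lowest, 0.145.

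Pdgfra was the rule gene whose fragments lay most at its promoter, here the stretch from 1000 bp before to 200 bp after a start site. In +RV 105 of its 249 fragments did (42.2%), against 23.7% at Col1a2, 23.4% at Wt1 and between 2.84% and 10.3% at the other 10. The promoter peak was also called in both bulk +RV libraries. The 250 bases upstream of the RefSeq start of Pdgfra (GRCm38.p6, chr5:75152001-75152250, + strand) are shown because this short stretch lies in the part of the gene where its accessibility gathered. Motif letters were looked for on both strands. AP-1 was searched as TGANTCA. TEAD was searched as GGAATG. The E-box was searched as CAGCTG. RUNX was searched as TGTGGTT, and GATA as AGATAA. PU.1 was searched as GAGGAAGT. None of these 6 strings occurs in the stretch, so no base is in capitals. Of 32851 RefSeq promoters, 12.6% hold the TEAD letters in the same 250 bases and 13% the E-box letters.
Pdgfra promoter: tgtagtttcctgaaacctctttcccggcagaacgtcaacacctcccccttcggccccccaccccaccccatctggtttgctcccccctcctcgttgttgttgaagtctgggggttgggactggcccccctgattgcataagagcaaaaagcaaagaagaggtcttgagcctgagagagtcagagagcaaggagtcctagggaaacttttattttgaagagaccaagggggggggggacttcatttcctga

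Bulk ATAC-seq of the same tissue had few peaks at these genes without reverse crosslinking. Both −RV libraries had 1 peak in the 13 windows, at Pdgfrb, with a fold over the local background of 5.49 and 4.10. In +RV, 20 peaks lay at 10 genes in replicate 1 and 22 peaks at 11 genes in replicate 2, of 47695 and 47799 peaks in all against 32224 and 32675 in −RV. The 10 genes with a peak in replicate 1 all had one in replicate 2. Wt1 had 1 promoter peak in each, of 6.47-fold and 5.95-fold. Klhl29 had 6 and 5 peaks, the highest of 7.39-fold and 7.27-fold. Smoc2 and Col3a1 had none in any of the 4 libraries, and C1qtnf7 had 1 in replicate 2 alone. Per the study's methods, the bulk FFPE nuclei were divided between the 2 conditions only after tagmentation. The cause of the difference in peaks was not tested. With 2 libraries against 2, an exact permutation test cannot pass a threshold of 0.05, so no test is given.

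The label was checked at 74 stromal genes held out of the rule, in 6 lists: fibroblast matrix, mesenchymal transcription factors, spleen stroma transcription factors, lymphoid stroma, mural and smooth muscle, and mesothelial. In +RV the members had 2732 CPM at these genes (2630 to 2838) and the other barcodes 1135 (1117 to 1154), a ratio of 2.41 (2.31 to 2.51). In −RV the levels were 2809 CPM (2436 to 3223) and 1113 (1060 to 1167), a ratio of 2.52 (2.17 to 2.92). CPM here scales fragments to 1000000 nuclear fragments outside the rule windows. With the other barcodes weighted to the depth of the members, the ratios were 2.36 and 2.51. By list, with values given below, the interval lay above 1 in both sets at 5 of the 6 lists, and not at the mesothelial one. The lists were chosen with earlier results of these data known, so they are not an independent check of the label.

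The held-out level was higher the more rule genes had been touched, on both sides of the threshold. Barcodes without a rule gene had 1035 CPM in +RV, those with 1 gene, just outside the rule, 1560, those with 2 genes, just inside it, 2416, and those with 3 or more 3356. In −RV the 4 levels were 1021, 1610, 2360 and 4161 CPM, the last from 75 fragments of 19 barcodes. The +RV set had 14783 barcodes with no rule gene, 2867 with 1, 670 with 2, 212 with 3, 68 with 4, 16 with 5 and 4 with 6.

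**Figure D1:**
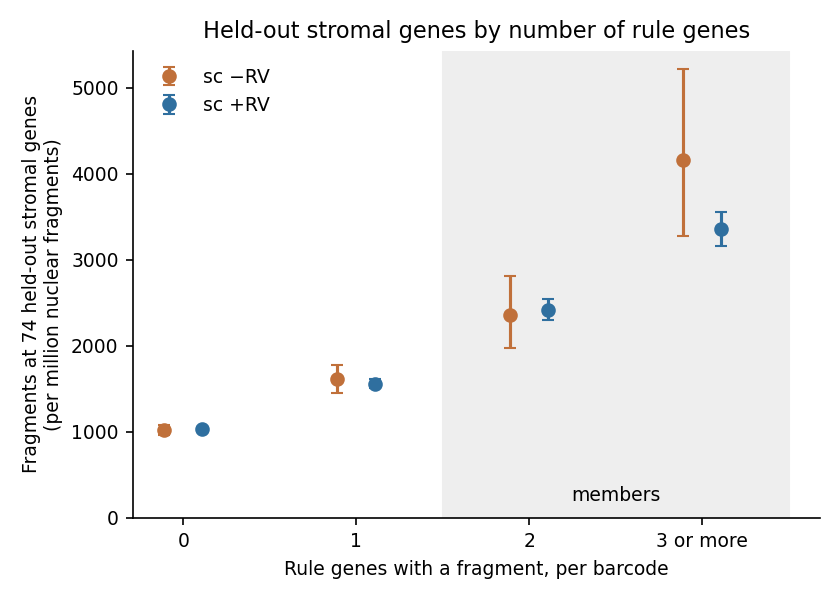
Fragments at the 74 held-out stromal genes in CPM (vertical axis) in barcodes that touched 0, 1, 2 or 3 or more rule genes (horizontal axis), for sc −RV and sc +RV, with exact 95% counting intervals; the grey field marks members. The level was 1035 CPM at 0 genes and 3356 CPM at 3 or more in +RV, and 1021 and 4161 CPM in −RV.

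Depth entered the rule, since a deeper barcode has more chances to touch 2 genes. Members had a median of 820 nuclear fragments against 617 in other barcodes in +RV, and 712 against 583 in −RV. From the shallowest to the deepest of 5 depth classes of the +RV barcodes the share of members went from 1.73% to 12%, and in −RV from 1.06% to 6.43%. After every barcode was thinned to 400 nuclear fragments, with 63 shallower +RV barcodes and 18 shallower −RV barcodes left out, none of them a member, 33.5% of the +RV members (30.5 to 36.6) had 2 or more held-out stromal fragments against 8.67% of the others (8.25 to 9.09). In −RV the shares were 36.5% (26.3 to 47.6) and 7.77% (6.71 to 8.94). Unthinned they were 62.3% and 19.9% in +RV. Other features also went with membership. Mitochondrial DNA made up 4.90% of the fragments of members and 7.04% of the others in +RV, and 3.90% and 7.83% in −RV. Fragments longer than 150 bp were 20.4% and 19.6% in +RV, and 15.1% and 15.2% of nuclear fragments lay at promoters. Barcodes had been selected on signal around start sites, so the promoter shares are not independent of that selection. The part of the mitochondrial share in the ratios was not tested.

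Each rule gene was also read in barcodes that the other 12 genes had chosen. In +RV the gene left out was higher in those barcodes for all 13 genes, with every interval above 1. Ntf3 had 97.0 CPM in the chosen barcodes and 19.2 in the rest, a ratio of 5.06 (3.93 to 6.48). Wt1 had 87.6 and 17.9 CPM, a ratio of 4.90 (3.74 to 6.35), and Col1a2 49.3 and 10.3 CPM, a ratio of 4.80 (3.36 to 6.77). Pdgfra stood at 3.73 and Pdgfrb at 3.47. The lowest ratios were those of Col1a1, 2.69 (1.68 to 4.15), and Col3a1, 2.50 (1.62 to 3.73). In −RV the counts were small. Smoc2 had 10 fragments in the 76 barcodes chosen without it and 20 in the rest, a ratio of 11.6 (4.83 to 25.9), and Wt1 had 7 and 22, a ratio of 7.62 (2.75 to 18.5). Col1a1 had 0 and 19 there, Col3a1 1 and 22, and Pdgfrb 1 and 22, where no difference was detectable at this depth. The −RV interval also held 1 at Vgll3, 1.81 (0.358 to 5.69), Ntf3, 3.33 (0.635 to 11.1), and C1qtnf7, 2.47 (0.644 to 6.83). At the remaining rule genes it lay above 1.

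The 20 Tn5 indices of each set mark 20 separate tagmentation reactions and served as technical batches. In +RV each reaction held 21 to 81 members, and the ratio at the held-out stromal genes lay between 1.76 (1.41 to 2.18) and 3.01 (2.34 to 3.82), with the interval above 1 in every reaction. The share of members ranged from 3.52% to 6.88%. In −RV a reaction held 1 to 9 members and the ratio ranged from 0 to 4.31. It was below 1 in 2 reactions, one with 1 member and one with 4. The interval lay above 1 in most −RV reactions and held 1 in the rest, these 2 among them.

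**Figure D2:**
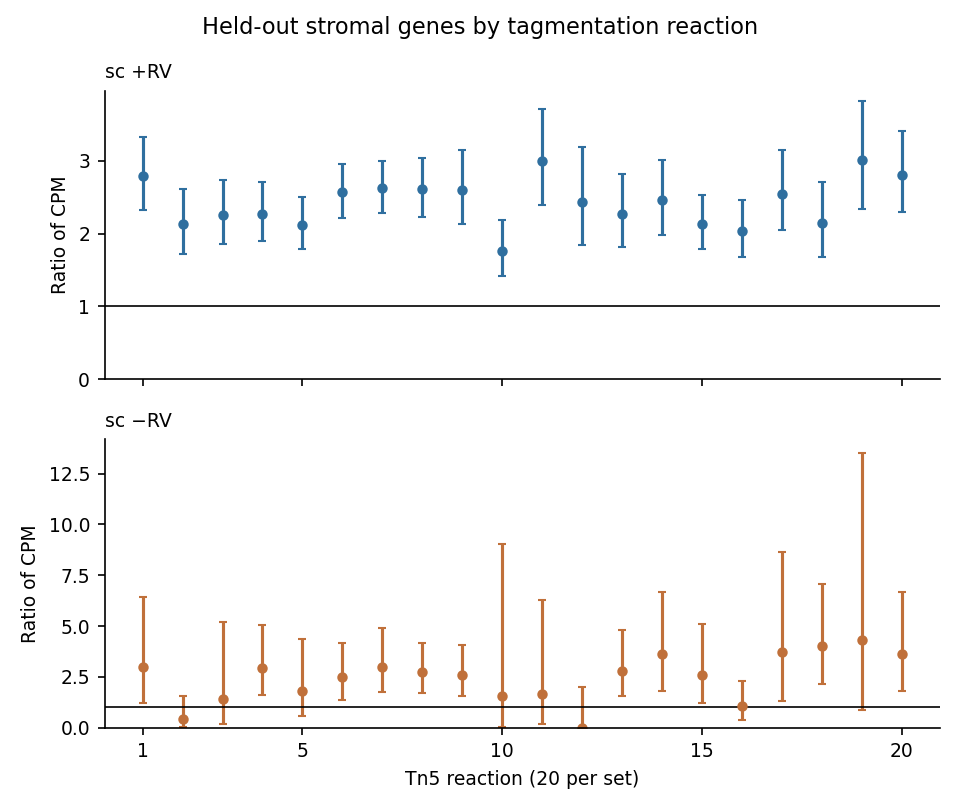
Ratio of CPM at the held-out stromal genes, members over other barcodes, in each of the 20 Tn5 reactions of sc +RV (top) and sc −RV (bottom), with exact 95% counting intervals and a line at 1. The +RV points lie between 1.76 and 3.01, and the −RV points between 0 and 4.31 with wide intervals.

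The fibroblast matrix list, 20 genes of the extracellular matrix and its crosslinking, had a ratio of 2.50 (2.32 to 2.70) in +RV and 2.63 (2.01 to 3.40) in −RV. Fbn1, the microfibril protein fibrillin-1, had 178 CPM in members and 60.9 in others in +RV, a ratio of 2.92 (2.46 to 3.45), and 194 against 52.6 CPM in −RV. Col5a1 and Col5a2, chains of the type V collagen that starts collagen fibrils, had ratios of 1.65 (1.32 to 2.05) and 1.46 (1.05 to 1.97) in +RV. Mesenchymal transcription factors had the highest ratio of the 6 lists, 3.15 (2.82 to 3.51) in +RV and 3.96 (2.67 to 5.70) in −RV. Gli2, which carries the Hedgehog signal, had 122 CPM against 30.5 in +RV, a ratio of 3.99 (3.22 to 4.91), and 152 against 25 in −RV, a ratio of 6.09 (2.81 to 12.2). Prrx1, a homeobox gene of limb and tissue mesenchyme, stood at 3.38 (2.67 to 4.25) in +RV and at 1.98 (0.619 to 4.93) in −RV, from 5 member fragments.

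Spleen stroma transcription factors, 6 genes, had 2.24 (2.02 to 2.48) and 2.39 (1.58 to 3.49). Lymphoid stroma had 2.45 (2.16 to 2.77) and 2.34 (1.39 to 3.72). Lepr, the leptin receptor of stromal niche cells, had 66.4 CPM against 20.8, a ratio of 3.20 (2.4 to 4.21) in +RV, and 2 member fragments in −RV. Enpp2, the enzyme autotaxin, stood at 1.67 (1.24 to 2.22). Mural and smooth muscle genes had 2.50 (2.29 to 2.72) and 2.4 (1.71 to 3.29). Mylk, the kinase that starts smooth muscle contraction, had 221 CPM against 59.4 in +RV, a ratio of 3.71 (3.18 to 4.33). Myh11, smooth muscle myosin, stood at 3.27 (2.56 to 4.13), and Abcc9, a channel subunit of pericytes, at 2.22 (1.75 to 2.79). The 9 mesothelial genes had 1.09 (0.886 to 1.34) and 1.13 (0.479 to 2.28). Muc16 stood at 0.854 (0.556 to 1.26) and Gpm6a at 1.02 (0.645 to 1.55) in +RV.

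**Figure D3:**
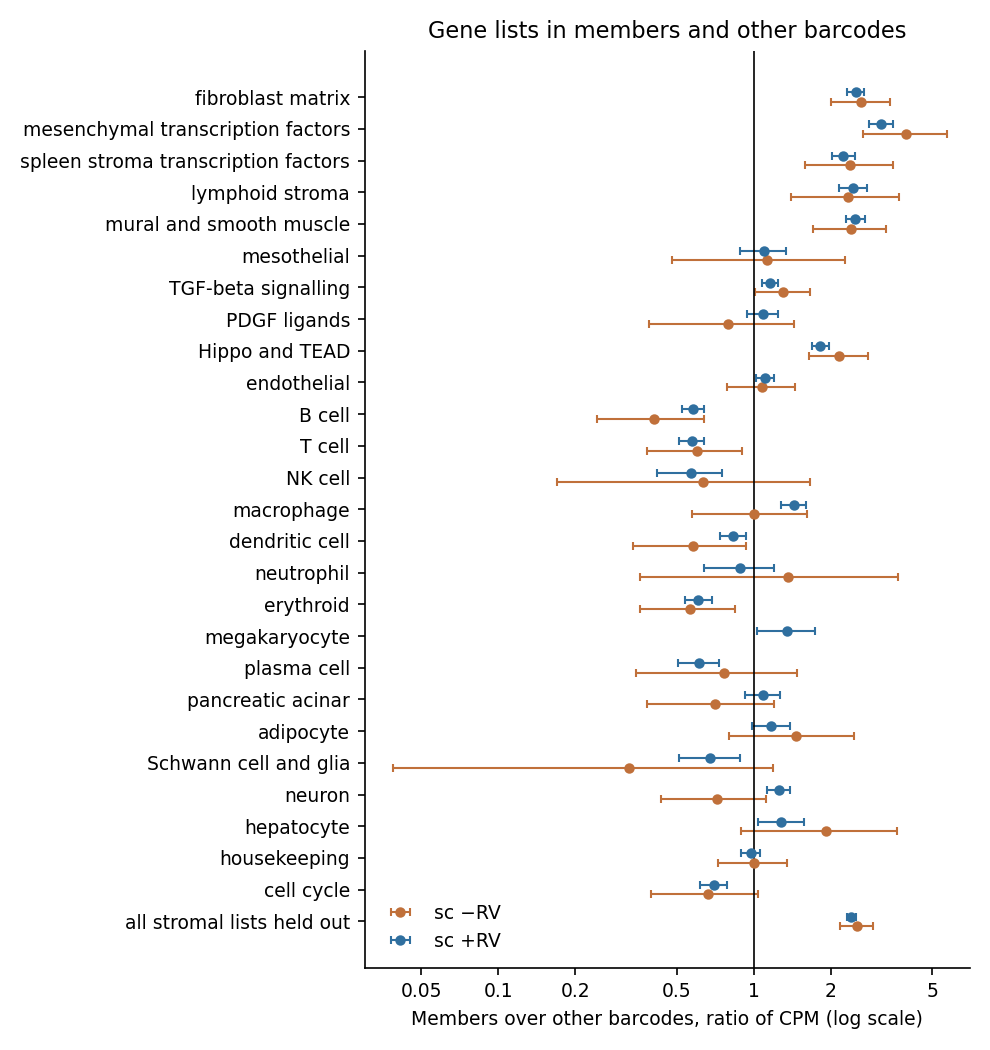
Ratio of CPM, members over other barcodes, for the 26 gene lists and the 74 held-out stromal genes together (log axis), in sc −RV and sc +RV with exact 95% counting intervals and a line at 1. The 5 non-mesothelial stromal lists lie between 2.24 and 3.96, the mesothelial list at 1.09 and 1.13; megakaryocyte genes had no member fragment in −RV and have no point there.

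In the held-out stromal genes the contrast was larger at promoters than in the rest of the windows. In +RV members had 358 promoter fragments and the others 1379, a ratio of 3.37 (3.0 to 3.79), against 2.30 (2.20 to 2.41) elsewhere in the windows. In −RV the ratios were 4.48 (2.89 to 6.73) and 2.35 (2.00 to 2.75). The promoters of mesenchymal transcription factors had 5.23 (3.85 to 7.03) in +RV, from 64 member fragments, and those of the fibroblast matrix 4.61 (3.60 to 5.85). At mural and smooth muscle genes the promoter and the rest were close in +RV, 2.74 (2.00 to 3.69) and 2.48 (2.26 to 2.71). In −RV they had 0.601 (0.0148 to 3.57), from 1 member fragment, and 2.58 (1.83 to 3.56). A higher ratio at promoters was not limited to stromal lists. Macrophage genes had 1.82 (1.42 to 2.30) and 1.35 (1.18 to 1.53) in +RV, while B cell genes had 0.546 and 0.583.

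A gene was compared alone where the members' share of its fragments predicted at least 20 member fragments in +RV or 5 in −RV, and was called at a ratio of 1.5 or more, or of 1/1.5 or less. Of 10894 genes compared in +RV, 894 were called higher in members (8.21%) and 1475 lower (13.5%), and the median ratio was 0.925. In −RV, where counts were low, 378 of 2120 were called higher (17.8%) and 610 lower (28.8%), most on few fragments. Of the 74 held-out stromal genes 17 had enough fragments in +RV. Of these, 14 were called higher and 0 lower, and the other 3 were Col5a2, Muc16 and Gpm6a.

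The genes called in +RV were then read in −RV, which came from the same pool of tagmented nuclei but other barcodes and other libraries. The 894 higher genes had together 2.05 times the CPM in −RV members (2.00 to 2.11), and of the 183 that could be compared alone there, 147 were called higher (80.3%, against 17.8% of all genes). The 1475 lower genes had together 0.613 (0.592 to 0.635), and 145 of 215 were called lower (67.4%, against 28.8%). The held-out stromal genes are part of the first group.

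The 10 genes with the highest +RV ratios held matrix, adhesion and signalling genes. Edar, the ectodysplasin receptor, led with 75.6 CPM in members and 16.6 in others, a ratio of 4.56 (3.45 to 5.97), and 5.89 (2.15 to 14.0) in −RV. Tnn and Tnxb encode the matrix glycoproteins tenascin-N and tenascin-X and had ratios of 4.16 and 3.94 in +RV, and 3.91 and 5.26 in −RV. Fermt2, which activates integrins, had 4.17, and Cald1, the actin-binding caldesmon, 225 CPM against 56.3, a ratio of 3.99 (3.42 to 4.65) with 4.37 (2.38 to 7.55) in −RV. Mras, a small GTPase, had 4.01 and in −RV 6.80 (3.11 to 13.7). Csf1, the growth factor that macrophages depend on, had 85.8 CPM in members and 22.3 in others, a ratio of 3.84 (2.98 to 4.92), and 96.9 against 19.1 CPM in −RV. Dkk3, a secreted Dickkopf-family protein, had 3.98, Aox1, an aldehyde oxidase, 3.82, and the 10th was Gli2. In −RV the interval lay above 1 for 9 of the 10, and for Aox1 it held 1, with 3 member fragments. Windows of neighbouring genes can overlap, and a fragment in both counted for both.

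The 5 lowest +RV ratios included genes of dendritic cells and B cells. Trpv2, a cation channel, had 5 member fragments and 460 of others, a ratio of 0.141 (0.0457 to 0.332), and 0 and 67 in −RV. Itgax, the CD11c integrin of dendritic cells, had 0.215, Fcrl1 of B cells 0.227, Il18r1, the interleukin-18 receptor, 0.220, and Unc5cl, a death-domain protein, 0.219. In −RV members Fcrl1 had 0 fragments, Itgax 2 and Unc5cl 3, the last 2 genes with ratios of 1.20 (0.140 to 4.68) and 1.13 (0.225 to 3.47).

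**Figure D4:**
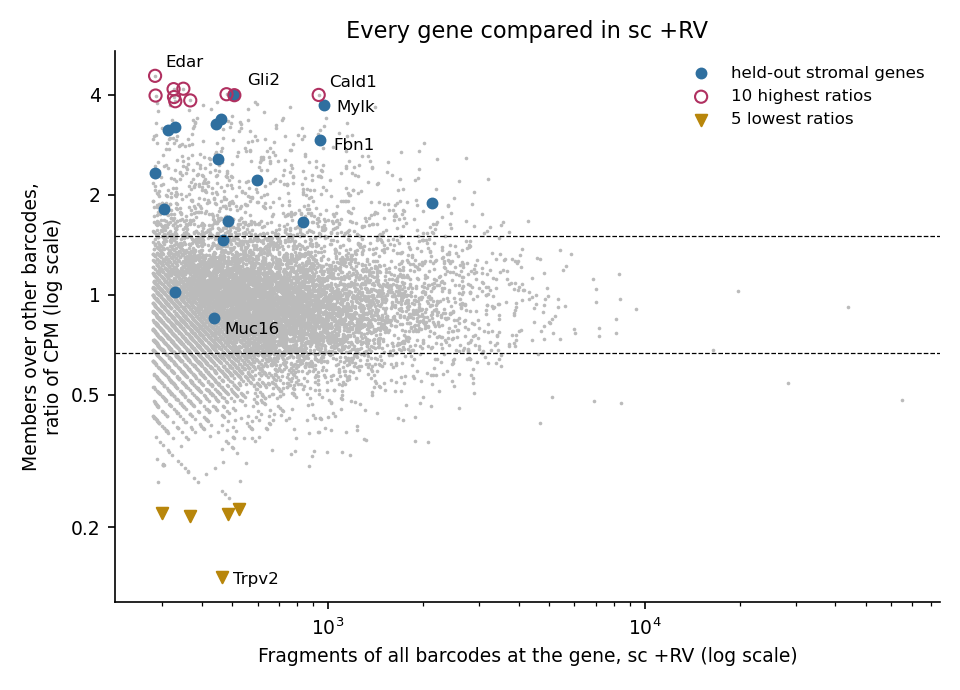
Each of the genes compared in sc +RV by its fragments over all barcodes (horizontal, log axis) and its ratio of CPM, members over other barcodes (vertical, log axis), with dashed lines at 1.5 and 1/1.5. The held-out stromal genes lie between 0.854 (Muc16) and 3.99 (Gli2), and the 10 highest ratios between 3.82 and 4.56; no error bars are drawn.

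Pathways tied to fibroblasts differed from each other. The Hippo and TEAD list, whose factors respond to stretch and adhesion, had 1.82 (1.68 to 1.97) in +RV and 2.16 (1.64 to 2.80) in −RV. Of its 7 genes compared in +RV, 4 were called higher (8.21% of all genes were): the coactivators Wwtr1 at 2.76 (2.19 to 3.45) and Yap1 at 2.27 (1.74 to 2.93), the DNA-binding partner Tead1 at 2.06 (1.68 to 2.50), and Amotl1, which binds Yap1, at 2.28 (1.76 to 2.93). Tead2 was called lower at 0.664, with an interval of 0.358 to 1.13. In −RV only 1 gene of the list could be compared, and it was called lower at 0.581 (28.8% of all genes were). TGF-beta signalling had 1.2 (1.07 to 1.24) in +RV and 1.3 (1.01 to 1.65), the −RV ratio falling to 0.723 in members of 3 or more genes and to 0.774 in barcodes of 1000 or more fragments. Of 8 genes 1 was called higher, Ltbp1, which stores latent TGF-beta in the matrix, at 1.55 (1.3 to 1.83), while the receptor Tgfbr2 stood at 0.733 (0.589 to 0.902). The PDGF ligands, whose receptors were in the rule, had 1.08 (0.938 to 1.25) and 0.789 (0.390 to 1.43). Pdgfc was called lower at 0.634 (0.469 to 0.840). Genes of these lists were named after their values were seen.

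Genes of lymphocytes and erythroid cells were lower in members. In +RV the B cell list had 0.579 (0.524 to 0.638), T cell 0.572, NK cell 0.566 and erythroid 0.607, and 7 of 10 B cell genes, 6 of 9 T cell genes and 7 of 10 erythroid genes were called lower (13.5% of all genes were) and none higher. In −RV the ratios were 0.407, 0.599, 0.632 and 0.564, the NK interval holding 1, and the T cell ratio was 1.1 when barcodes were thinned to 400 fragments. The highest gene of the list was Blk at 0.750 for B cells and Cd247 at 0.951 for T cells. Plasma cell genes had 0.609, dendritic cell genes 0.830 and cell cycle genes 0.697 in +RV, with Xbp1 at 1.02 and Irf8 at 1.20. Housekeeping genes had 0.971 (0.892 to 1.05) in +RV and 1.00 (0.722 to 1.35) in −RV.

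Members were not free of signal at genes of other cell types. The macrophage list had 344 CPM in members and 240 in others in +RV, a ratio of 1.43 (1.28 to 1.61), 1.32 with the others weighted to the members' depth, and 235 against 236 CPM in −RV. Of its 5 genes compared 3 were called higher (8.21% of all genes were): Mertk, a receptor for dying cells, at 2.01 (1.63 to 2.46), Csf1r, the receptor of Csf1 and a neighbour of Pdgfrb whose window does not overlap the rule window, at 1.78 (1.29 to 2.41), and Hmox1, which degrades haem, at 1.58. Adgre1, the F4/80 antigen, was called lower at 0.601. Endothelial genes had 665 CPM against 602, a ratio of 1.10 (1.02 to 1.20), with Tek at 1.88 (1.47 to 2.38) and Eng at 1.74 (1.33 to 2.25), both called higher of 8 compared, beside Pecam1 at 0.786 and Cdh5 at 0.882. The endothelial ratio was 1.01 (0.895 to 1.13) without the 2 longest rule genes and 1.08 (0.786 to 1.45) in −RV, where both genes compared were called lower (28.8% of all genes were). Megakaryocyte genes had 1.34, which became 0.874 in barcodes of 1000 or more fragments, and 0 member fragments against 84 in −RV, an interval of the ratio up to 0.944. Neuron genes had 1.25 with Syt1 at 1.33 in +RV, and 0.715 (0.434 to 1.11) with Syt1 at 0.833 in −RV. Acinar genes had 1.08 (0.924 to 1.27) with Cela1 at 0.701 in +RV, 0.842 with the others weighted to the members' depth, 0.658 (0.459 to 0.913) in members of 3 or more rule genes, and 0.704 (0.382 to 1.19) in −RV. Neutrophil genes had 0.885 (0.637 to 1.20) and 1.36 (0.358 to 3.65), so that these 3 lists lay on opposite sides of 1 in the 2 sets. Hepatocyte genes had 1.28 and 1.91 with Apoa2 at 1.19 in +RV, adipocyte genes 1.17 and 1.46 with Pparg at 1.22, and Schwann cell genes 0.675 and 0.323 with Cdh19 at 0.624. The part of nuclei of other types and of barcodes that hold 2 nuclei was not tested. Without the 5% deepest barcodes the held-out stromal ratio was 2.66 in +RV and 2.93 in −RV.

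Members gathered in few clusters of a map built without the rule windows. The barcodes of each set were clustered on 5 kb bins, which gave 18 clusters in +RV and 9 in −RV. In +RV cluster 3, of 1481 barcodes, 560 were members (37.8%, 35.3 to 40.3), which was 57.7% of all members. Cluster 16 followed with 76 of 439 (17.3%, 13.9 to 21.2), then cluster 8 with 53 of 956 (5.54%), whose highest list was endothelial at 3.68 times the rest. The held-out stromal genes were also higher in cluster 8, at 1.65 times the rest (1.56 to 1.74), with fibroblast matrix at 1.67. In cluster 3 the held-out genes stood at 3.17 (3.06 to 3.29). The endothelial list stood at 1.92 in cluster 16 and at 0.888 in cluster 3. A higher held-out level was therefore not limited to clusters led by a stromal list. In cluster 1, led by erythroid genes at 6.17 times the rest, 53 of 3380 barcodes were members (1.57%), and in cluster 2, led by B cell genes, 17 of 1614 (1.05%). Cluster 14, led by pancreatic acinar genes at 23.7 times the rest, had 28 of 588 (4.76%). The other 12 clusters had between 1.03% and 4.27%. The highest list of cluster 3 was mesenchymal transcription factors at 4.26 times the rest. Its leading genes by ratio were Serpina1b at 8.13 and Lhfp at 7.75, followed by Tnn, Vstm4 and Edar. None of these genes was in a list fixed for naming, and the cluster keeps its number.

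**Figure D5:**
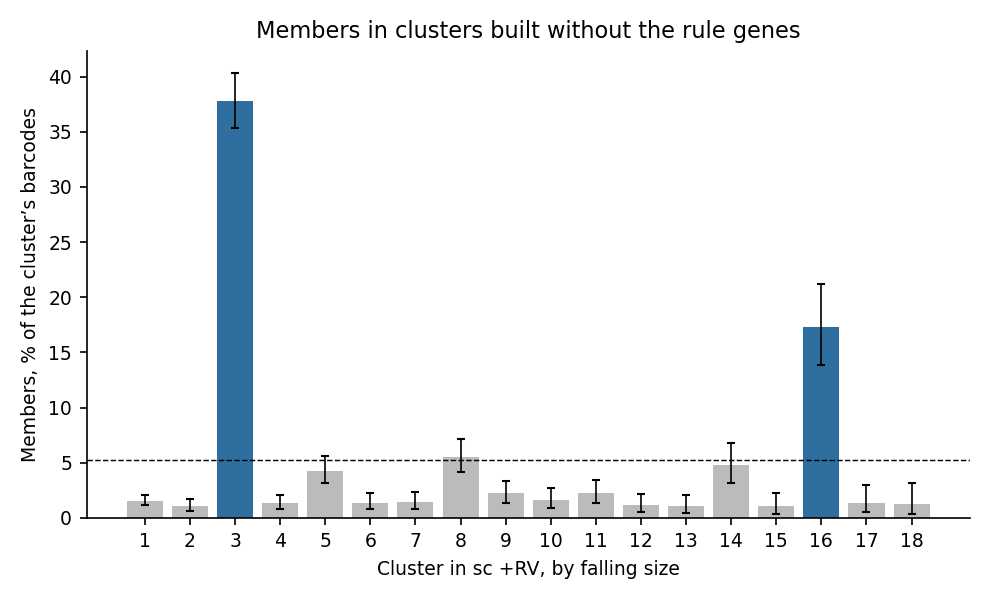
Members as a percentage of the barcodes of each sc +RV cluster (vertical axis), clusters numbered by falling size (horizontal axis), with exact 95% binomial intervals; the dashed line is the 5.21% of all barcodes, and blue bars are clusters 3 and 16. Cluster 3 reaches 37.8% and cluster 16 17.3%, and the other 16 lie between 1.03% and 5.54%.

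Barcodes that had touched more rule genes lay more often in cluster 3. No fragment in a rule window had entered the map, but the cluster was singled out by its share of members. The rise is therefore a description. Of +RV barcodes with 0 rule genes 2.85% lay in cluster 3, with 1 gene 17.4%, with 2 genes 49.7% (45.8 to 53.6), with 3 genes 73.6% (67.1 to 79.4), and with 4 or more 80.7% (70.9 to 88.3). In −RV, cluster 6 had the highest share of members. It held 8.42% of barcodes with 0 rule genes, 6.51% with 1, 15.2% with 2, 21.4% of 14 with 3, and 0 of 5 with 4 or more. The rule missed most of +RV cluster 3, since 921 of its 1481 barcodes were not members. These had 3143 CPM at the held-out stromal genes, near the 3591 CPM of the 560 members beside them, with median depths of 626 and 784 nuclear fragments. The 410 members in other clusters had 1763 CPM and the other barcodes there 1027. Over those other barcodes, the macrophage list stood at 1.60 and the endothelial list at 1.29 in the 410 members. In the members of cluster 3 the same ratios were 1.33 and 0.928. The genes of the lists were part of the map, so these levels are a description. Mitochondrial DNA made up 6.66% of the fragments of the 410 members and 3.54% of those of the members in cluster 3.

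Cluster 3 against the rest gave the level of each rule gene in a cluster made without the windows of the 13. The cluster was singled out by its share of members, which the rule genes define, so these levels are a description. Wt1 had 123 CPM in cluster 3 and 13.1 outside, a ratio of 9.39 (7.46 to 11.8). Ntf3 had 8.83 (7.07 to 11.0), Smoc2 8.17, Pknox2 7.76, Col1a2 7.69, Cemip 7.04, Vgll3 7.03, Klhl29 6.91, C1qtnf7 6.71 and Pdgfra 5.95. Pdgfrb had 95.6 CPM against 19.9, a ratio of 4.79 (3.80 to 6.01). Col3a1 stood at 3.22 (2.23 to 4.55) and Col1a1 at 2.90 (1.90 to 4.32), and their intervals did not reach that of Col1a2. These 2 genes also had the lowest ratios when left out of the rule. In cluster 16 the intervals of 11 rule genes also lay above 1, from 2.48 (1.05 to 5.03) at Col1a1 to 3.66 (2.28 to 5.61) at Vgll3, and those of Col3a1 and Pdgfrb held 1. Klhl29 and C1qtnf7 were also higher in cluster 8, at 3.03 (2.56 to 3.58) and 3.09 (2.4 to 3.93), where the endothelial list led. Pdgfrb had 1.52 (1.06 to 2.11) in cluster 5, led by macrophage genes, and Cemip 1.64 (1.1 to 2.28) in cluster 14. The 50 members that had touched Col1a1 had a held-out ratio of 1.46 (1.17 to 1.80), and those of the other 12 genes between 2.15 and 2.96.

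In −RV no cluster gathered the members, on a map of 24910 bins and 2406 barcodes against 383544 and 18620 in +RV. No −RV cluster had a held-out stromal ratio above 1.22 (1.04 to 1.41, cluster 5). The part of the sparser map was not tested. The highest share of members was 13 of 202 barcodes in cluster 6 (6.44%, 3.47 to 10.8), followed by 21 of 329 in cluster 3 (6.38%). The lowest was 5 of 582 in cluster 1 (0.859%), which erythroid genes led at 6.55 times the rest. Within 7 of the 9 clusters the members had more held-out stromal fragments than the other barcodes of their cluster with an interval above 1, from 2.07 (1.16 to 3.48) to 3.44 (1.90 to 5.83). In cluster 1 and cluster 9 the interval held 1, with 5 and 2 members. The same comparison within +RV clusters gave 1.14 (1.07 to 1.22) in cluster 3, 1.21 (1.02 to 1.44) in cluster 16 and 1.01 (0.816 to 1.25) in cluster 8. Across all +RV clusters it ran from 0.601 (0.0724 to 2.20) in cluster 17 to 2.67 (1.79 to 3.83) in cluster 7. The interval held 1 in +RV clusters 8, 9, 10, 14, 15, 17 and 18.

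Open regions away from the rule genes were taken from the bulk peaks, merged over the 4 libraries to 60127 regions, 60101 of them outside the rule windows. Fragments in these regions were 21.3% of those of members and 22.2% of the others in +RV. Of 11360 regions with at least 5 expected member fragments, 313 had a ratio of 2 or more (2.76%) and 1500 of 1/2 or less (13.2%). The same 313 regions had together 2.12 times the CPM in −RV members (1.87 to 2.41), and the 1500 lower regions 0.621 (0.566 to 0.679). Promoters were 69.8% of the regions compared but 53.4% of the 313, and 4.75% of intergenic regions were called higher against 2.1% of promoters. Among regions outside promoters, 29.2% of the intronic and 28.6% of the intergenic ones were called lower, against 7.55% of promoters. Intergenic regions were thus called more often than promoters in both directions, at a minimum of 5 expected member fragments.

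The region with the highest ratio, chr4:66482479-66483445, was intergenic with the start of Astn2 78351 bp away. It had 39 fragments in 33 members and 32 fragments in 32 other barcodes, a ratio of 15.8 (9.67 to 26.1), and 0 and 2 fragments in −RV. The next were the promoter of C1rl, a complement protease relative, at 6.27 (3.81 to 10.1) on chr6:124492780-124493684, an intergenic region at 5.20 (2.93 to 8.89) on chr2:167594380-167594933, 37315 bp from the nearest start, that of Ube2v1, the promoter of Bok, a relative of Bcl2, at 5.16 (3.24 to 8.04) on chr1:93687784-93688632, and an exon of the zinc-finger gene Zfp503 at 5.0 (2.83 to 8.52) on chr14:21987797-21988598. In −RV these 4 had 1, 3, 3 and 1 member fragments and 9, 7, 8 and 6 of others. Shown are the central 300 bases of the first region and of the 2 of the 5 that hold one of the searched motifs (GRCm38.p6, + strand), capitals marking GGAATG, the TEAD letters, in the region near Ube2v1, and CAGCTG, the E-box letters, at Bok.
Intergenic, chr4:66482812-66483111: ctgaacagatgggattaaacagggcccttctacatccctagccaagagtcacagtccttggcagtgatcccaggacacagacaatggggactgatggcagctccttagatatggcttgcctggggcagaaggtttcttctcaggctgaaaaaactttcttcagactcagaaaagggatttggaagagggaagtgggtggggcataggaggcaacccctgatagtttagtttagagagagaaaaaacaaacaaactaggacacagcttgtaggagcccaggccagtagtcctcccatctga
Intergenic near Ube2v1, chr2:167594507-167594806: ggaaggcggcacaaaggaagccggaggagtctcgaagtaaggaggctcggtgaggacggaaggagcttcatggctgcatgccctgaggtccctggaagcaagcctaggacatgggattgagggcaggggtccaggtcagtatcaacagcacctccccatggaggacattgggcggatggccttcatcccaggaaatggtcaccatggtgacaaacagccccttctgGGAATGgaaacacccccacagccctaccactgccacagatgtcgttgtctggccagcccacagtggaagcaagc
Bok promoter, chr1:93688058-93688357: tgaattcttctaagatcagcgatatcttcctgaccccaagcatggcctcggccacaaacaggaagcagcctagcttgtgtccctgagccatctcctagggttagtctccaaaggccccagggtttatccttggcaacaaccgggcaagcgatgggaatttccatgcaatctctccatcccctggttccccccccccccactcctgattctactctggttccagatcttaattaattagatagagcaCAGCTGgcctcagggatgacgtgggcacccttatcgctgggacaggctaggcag

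Letters of motifs were counted in the central 300 bases of each region on both strands. The TEAD letters stood in 50 of the 313 higher regions (16%), in 9.30% of all regions compared and in 9.53% of the 1500 lower ones. The E-box letters stood in 24.6%, 16.4% and 19.8%. RUNX letters stood in 3.19% of the higher regions, 4.74% of all and 11.1% of the lower, PU.1 letters in 1.92%, 4.07% and 9.07%, GATA letters in 6.39%, 5.68% and 12.7%, and AP-1 letters in 7.35%, 4.90% and 8.40%. Outside promoters the TEAD letters stood in 18.5% of 146 higher regions and 10.9% of 3426 compared. The GC content was 61.9% in the higher regions, 62.6% in all and 56.1% in the lower ones. These are counts of letters, with no test, and no factor's binding was measured.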

How the data were processed

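Chromatin accessibility was measured in FFPE mouse spleen by single-cell and bulk ATAC-seq, with 2 libraries per condition. Per the study's methods, the authors aligned reads to mm10 with BWA, removed duplicates and selected barcodes by unique fragments and signal at start sites. The authors deposited 1 pooled list of fragment positions per single-cell condition, which also holds barcodes under the main fragment minimum of the study. The authors deposited bulk MACS2 peaks outside the blacklist, each with a score, a fold (the ratio of pile-up to local background) and −log10 p and q values. The submitters' processing notes also name Bowtie2 2.4, SAMtools 1.15, Picard 1.119 and SEACR 1.3 without their roles. No score or −log10 p was compared between groups.

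Fragments were counted by midpoint in mm10 GENCODE gene bodies plus 5 kb upstream of 21911 protein-coding genes, and a fragment in overlapping windows counted for each gene. The members, lists and rule were chosen with earlier results of these data known. Mitochondrial fragments were left out of CPM. A ratio is the CPM of members over that of the set's other barcodes, with an exact 95% interval that covers counting error only, and with 1 pooled sample per condition no p-value is given. A gene was compared at 20 (+RV) or 5 (−RV) expected member fragments, a bulk-peak region at 5. The genes named were the 13 rule genes, up to 3 of each held-out stromal list by pooled count, the 10 highest and 5 lowest +RV ratios, the highest gene of each other cell type list and the 5 highest regions. Some genes that this rule names are not reported here. Other genes were named after their values were seen. Regions were merged bulk peaks. Clusters came from 5000 bp bins without the rule windows, 20 components, 20 neighbours and a Leiden resolution of 1. Doublets were not called, and results were repeated without the 5% deepest barcodes. Sequences were read from RefSeq (GRCm38.p6). Barcodes had at least 501 (−RV) or 500 (+RV) fragments, so a single barcode holds few fragments of any gene and values rest on sums. Python 3.11.15, numpy 2.4.6, scipy 1.17.1, pandas 2.3.3, scikit-learn 1.9.0, igraph 0.11.9, leidenalg 0.10.2 and matplotlib 3.10.9 were used, and the ratio was tested on simulated data. Alternatives varied the rule, windows, depth, fragment length, minimum, fold, resolution and peaks.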

Additional observations from a re-analysis of the deposited data

How the results depend on the processing

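No paired analysis was possible because the single-cell sets pool the replicates of each condition, and for the same reason no replicate could be left out. Of 546 list and gene values under alternatives, 506 lay on the same side of 1 as the reported value and 40 on the other. Of those 40, 36 belonged to reported values whose interval held 1, such as the acinar ratio in +RV, 0.658 with 3 or more rule genes, and the mesothelial ratio in +RV, 0.934 after thinning. The other 4, of 332 whose reported interval left out 1, were the megakaryocyte ratio in +RV, 0.874 in barcodes of 1000 or more fragments, the TGF-beta ratio in −RV, 0.723 with 3 or more rule genes and 0.774 in barcodes of 1000 or more fragments, and the T cell ratio in −RV, 1.1 after thinning to 400 nuclear fragments. The cause of these was not tested. In +RV and −RV, members numbered 300 and 19 with 3 or more rule genes, 490 and 46 without the 2 longest rule genes, 384 and 38 after thinning, and 373 and 20 among barcodes of 1000 or more fragments. With fragments of at most 100 bp there were 493 in +RV. The held-out stromal ratio in +RV was 2.80 with 3 or more genes, 2.54 without the 2 longest, 2.59 thinned, 2.22 at 1000 or more fragments, 2.66 without the 5% deepest barcodes and 2.22 with fragments of at most 100 bp. By list it was 3.15 for mesenchymal transcription factors, 2.24 for spleen stroma transcription factors and 1.09 for mesothelial genes. In −RV it was 3.60 with 3 or more genes, 3.01 thinned, 1.87 at 1000 or more fragments, 2.93 without the deepest, 3.96 for mesenchymal transcription factors and 1.13 for mesothelial genes. Genes at a ratio of 1.5 or more in +RV numbered 1472 at a minimum of 10 and 343 at a fold of 2. They numbered 327 with 3 or more rule genes, 491 without the 2 longest, 76 thinned, 478 at 1000 or more fragments and 230 at 100 bp or less, and those at 1/1.5 or less 559, 840, 124, 869 and 319. In −RV the higher genes numbered 84 at a minimum of 10, 131 at a fold of 2, 18 with 3 or more genes, 125 without the 2 longest, 4 thinned, 63 at 1000 or more fragments, 164 without the deepest and 219 at 100 bp or less. The lower genes numbered 24, 201, 18, 97, 263 and 318 under the last 6 of these. Several of these settings leave fewer members or fewer genes compared. Regions at 2 or more fell to 41 at a minimum of 10 expected fragments.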
